A study of Mus musculus with 15 samples.

Results

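The genes examined here were 29 genes of cholesterol synthesis and its control in mouse liver, taken by symbol from the 55984 gene symbols of the count table. They comprised 20 synthesis enzymes (8 of the mevalonate pathway, 3 between squalene and lanosterol, 9 between lanosterol and cholesterol), 6 genes for the transcription factor SREBP2 and its processing, and 3 genes for sterol transfer and export. All 29 were among the 17488 genes expressed highly enough to be tested, with between 49 and 13546 counts per library. The hepatocytes came from the livers of WT adult male C57BL/6JJcl mice, and the groups shared this genotype. All cells were stained with the DNA dye Hoechst in the presence of reserpine, a blocker of transporters that can pump the dye out, and were sorted by fluorescence. The 2n-whole population held diploid cells and the 4n-whole population all tetraploid cells, whether with a single tetraploid nucleus or a pair of diploid nuclei. The 4n-bottom population, with the lower Hoechst-height, held mostly binucleated cells. The 4n-top population, with the higher Hoechst-height, was enriched for mononucleated cells but kept a large binucleated fraction, since the cells were sorted only once. There were 4 libraries each of 2n-whole, 4n-whole and 4n-bottom and 3 of 4n-top, from 4 mice numbered as in the labels, and the 4n-top library of mouse 1 was not analysed here.

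Cholesterol is built from acetyl-CoA by way of mevalonate, isoprenoid diphosphates, squalene and lanosterol. When sterols are scarce in the endoplasmic reticulum, SCAP escorts SREBP2 to the Golgi apparatus, where the proteases encoded by Mbtps1 and Mbtps2 release its active fragment. INSIG proteins hold SCAP back when sterols are plentiful. In the liver, synthesis is known to follow feeding and the time of day, and surplus sterol is passed into bile by the transporter formed from ABCG5 and ABCG8.

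Total counts ranged from 22049498 to 42096421 per library, so that 3 counts, taken as the detection floor, corresponded to at most 0.120 CPM (counts scaled to library size). Such floors cover counting error only. CPM values were normalized by the trimmed mean of M-values (TMM). Hepatocyte markers were abundant in every library, with summed levels of 81249 to 112189 CPM over the 7 of 8 markers found. Kupffer cell markers summed to at most 7.93 CPM and lymphocyte markers to at most 1.32 CPM. Mitochondrial transcripts took 20.5 to 26.2% of counts in 2n-whole and 8.84 to 23.6% in the 4n populations. The 2n cells had also been centrifuged faster and for longer than the 4n cells, and this handling cannot be told apart from ploidy.

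The genes that define the pattern described below are shown by the 250 bases before a start site, from RefSeq windows on GRCm38.p6. Sterol regulatory element cores (TCACNCCAC and CACCCCAC), the CCAAT box and the GC box GGGCGG were searched on both strands and are in capitals. Hmgcs1 is shown because it alone held TCACNCCAC, a choice made after the motif counts were seen. The others had the smallest p-values in the test among mice and an entry in the promoter table. The windows were chr13:119690101-119690350 for Hmgcs1, chr10:76531355-76531604 for Lss and chr3:89454291-89454540 for Pmvk (1 of 2 windows), all on the plus strand. They were chr17:84682871-84683120 on the plus strand for Abcg8 (1 of 2 windows) and chr17:84683012-84683261 on the minus strand for Abcg5.
Hmgcs1: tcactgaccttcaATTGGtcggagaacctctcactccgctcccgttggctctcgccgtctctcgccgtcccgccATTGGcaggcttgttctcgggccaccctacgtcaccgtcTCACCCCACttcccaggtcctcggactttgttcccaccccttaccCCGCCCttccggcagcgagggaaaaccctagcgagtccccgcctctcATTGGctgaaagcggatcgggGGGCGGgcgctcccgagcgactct
Lss: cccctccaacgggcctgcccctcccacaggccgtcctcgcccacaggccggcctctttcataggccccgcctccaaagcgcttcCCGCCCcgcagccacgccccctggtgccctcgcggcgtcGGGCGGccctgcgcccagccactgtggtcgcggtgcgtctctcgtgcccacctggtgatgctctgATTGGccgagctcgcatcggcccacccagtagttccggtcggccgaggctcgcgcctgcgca
Pmvk: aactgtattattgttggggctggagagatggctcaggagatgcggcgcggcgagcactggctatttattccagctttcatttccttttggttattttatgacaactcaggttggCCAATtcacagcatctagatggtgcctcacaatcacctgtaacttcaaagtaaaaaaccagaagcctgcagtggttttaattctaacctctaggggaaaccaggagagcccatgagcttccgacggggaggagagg
Abcg8: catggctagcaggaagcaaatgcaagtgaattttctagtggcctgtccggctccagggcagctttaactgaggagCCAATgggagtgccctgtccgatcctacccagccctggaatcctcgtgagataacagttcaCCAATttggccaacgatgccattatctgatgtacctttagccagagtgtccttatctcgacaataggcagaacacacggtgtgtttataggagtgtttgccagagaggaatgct
Abcg5: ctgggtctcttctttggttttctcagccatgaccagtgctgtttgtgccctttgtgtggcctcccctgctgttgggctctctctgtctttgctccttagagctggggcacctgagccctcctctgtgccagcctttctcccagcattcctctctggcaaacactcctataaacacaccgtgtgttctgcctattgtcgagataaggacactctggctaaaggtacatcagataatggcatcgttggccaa
The Abcg8 and Abcg5 windows overlap because the genes are read in opposite directions from neighbouring starts. Of the 29 genes, 25 had an entry in the table, which covers 250 bases before to 50 bases after each start. TCACNCCAC was found in 1 of the 25 (Hmgcs1, starting 137 bases before the start site, where it overlaps a CACCCCAC), against 1.44% of 27025 genes. CACCCCAC was found in 2, Hmgcs1 and Acat2, against 3.30% of genes. CCAAT was found in 21 of 25 (16 of 17 enzymes) against 41.1% of genes, and GGGCGG in 20 of 25 against 38.2%. The shares of genes are over all 27025 with a window, and not over those expressed in these cells, as the 29 are. These matches are descriptions of letters and not of binding.

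Levels of the synthesis genes differed mainly between mice. In the edgeR quasi-likelihood test among the 4 mice, with the population in the model, 20 of the 29 genes passed at a Benjamini-Hochberg adjusted p below 0.05, against 19.2% of all tested genes. These were 16 of the 20 enzymes (7 of 8 in the mevalonate pathway, 3 of 3 between squalene and lanosterol and 6 of 9 after lanosterol), 1 of the 6 genes of SREBP2 processing (Insig1) and 3 of 3 for transfer and export. The 9 that did not pass were Ggps1, Tm7sf2, Lbr, Ebp, Srebf2, Insig2, Scap, Mbtps1 and Mbtps2. In the corresponding test among the 4 populations, 0 of 29 passed, against 1.95% of all tested genes, and 7 had an unadjusted p below 0.05, as did 2265 of the 17488 tested genes. The labels name each mouse by a subject number only, so that the animal cannot be told apart from its cell preparation. The study's methods give a range of ages for its mice, and any difference in age is part of the difference among mice. The p-values measure mice against the spread among populations sorted from the same mouse.

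**Figure D1:**
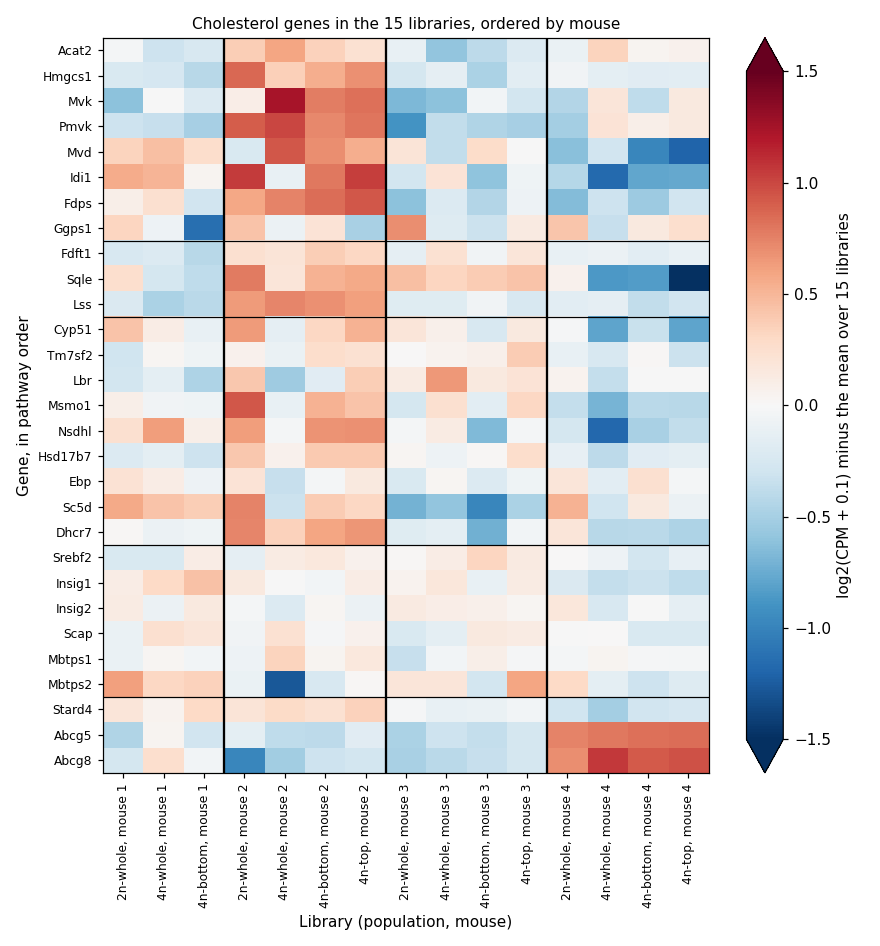
Log2 deviation of each of the 29 genes from its own mean over 15 libraries (colour, log2 of CPM plus 0.1), with genes in pathway order down the rows and libraries grouped by mouse along the columns. The enzyme rows are mostly red in the mouse 2 block, and the Abcg5 and Abcg8 rows are red in the 4 mouse 4 libraries.

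The mouse took a median of 71.4% of the variance of log2 CPM over the 29 genes and the population 9.29%, whereas over all tested genes the medians were 31.9% and 18.1%. For 20 of the 29 genes, and for 16 of the 20 enzymes (80%), the mouse took the majority of the variance, as it did for 25.5% of all tested genes. The share was highest for Lss (96.6%), followed by Abcg5 (93.3%), Stard4 (92.0%) and Abcg8 (90.0%). The population took more than the mouse for 3 genes, Insig2 (46.6%), Ggps1 (46.2%) and Mbtps1 (39.2%). The highest mouse mean exceeded the lowest by a median of 1.92-fold over the 20 enzymes, and the highest population mean exceeded the lowest by a median of 1.24-fold.

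**Figure D2:**
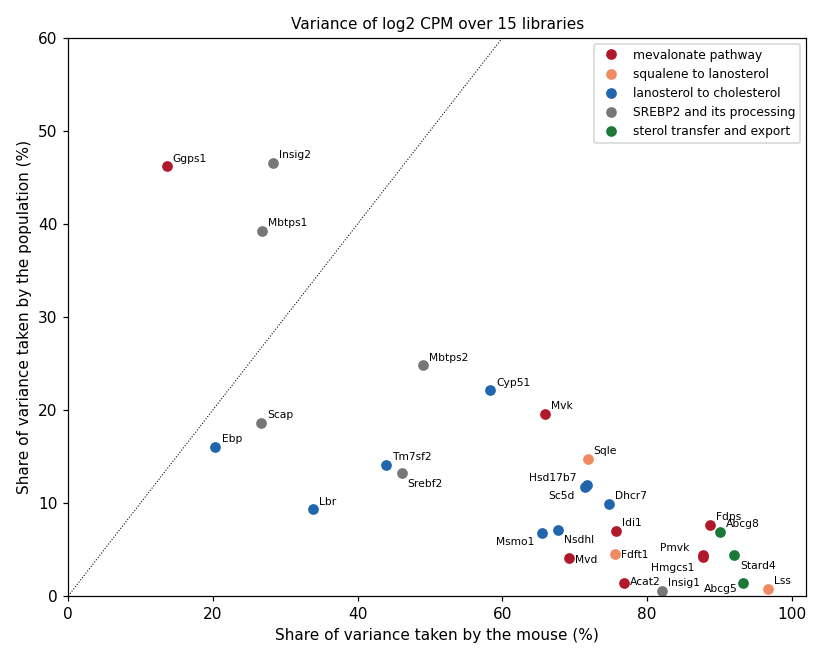
Share of the variance of log2 CPM taken by the mouse (x axis, percent) and by the population (y axis, percent) for each of the 29 genes, coloured by role, with a dotted line of equal shares. Most enzymes lie at the lower right, with Lss at 96.6% and 0.791%, and only Ggps1, Insig2 and Mbtps1 lie above the line.

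Mouse 2 carried the highest enzyme levels. It had the highest mean for 15 of the 20 enzymes and the lowest for 0. Within populations, it was highest for 17 of 20 enzymes in 2n-whole and 9 in 4n-whole, and for 18 in each of the other 4n populations. The mean log2 deviation of the 20 enzymes was 0.53, 0.23, 0.47 and 0.49 in its 4 libraries, and between -0.36 and 0.03 in the other 11. For 5 of the 29 genes (Hmgcs1, Pmvk, Fdps, Lss and Dhcr7) all 4 libraries of mouse 2 lay above all others, which held for 0.921% of all tested genes.

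Hmgcs1 (chr13:120151915-120170470, plus strand, GRCm39), which makes the HMG-CoA used for mevalonate, stood at 148, 104, 119 and 131 CPM in the 4 libraries of mouse 2 (here and below in the order 2n-whole, 4n-whole, 4n-bottom, then 4n-top). In the other 11 libraries it ranged from 58.3 to 78.4 CPM, without overlap (edgeR adjusted p = 8.0e-08 among mice). Pmvk (chr3:89361758-89376323, plus strand), which adds the second phosphate to mevalonate, stood at 68.4, 73.3, 60.2 and 63.3 CPM in mouse 2 and at 19.6 to 42.01 CPM elsewhere (edgeR adjusted p = 3.2e-09). Mouse 4 was intermediate for this gene, with 42.01, 38.8 and 40.1 CPM in its 4n libraries and 25.5 CPM in 2n-whole. Fdps (chr3:89000888-89019213, minus strand), which makes farnesyl diphosphate, stood at 128, 143, 153 and 164 CPM in mouse 2 and at 54.8 to 101 CPM elsewhere (edgeR adjusted p = 5.0e-10). Mouse 1 came next, at 91.3 CPM in 2n-whole, 101 in 4n-whole and 70.5 in 4n-bottom. Behind mouse 2, Pmvk was thus highest in mouse 4 in the 4n populations, but in mouse 1 (29.3 CPM) in 2n-whole. Fdps was next highest in mouse 1 in each population where mouse 1 had a library.

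Lss (chr10:76367298-76392976, plus strand), which closes the rings to give lanosterol, had the highest share of variance between mice. It stood at 59.5, 63.3, 61.4 and 58.5 CPM in mouse 2, and at 27.5 to 36.9 CPM in the other 11 libraries (edgeR adjusted p = 2.2e-08). No other mouse stood apart for Lss, with means of 29.7, 34.2 and 32.5 CPM in mice 1, 3 and 4. Dhcr7, which encodes the last reductase of one route to cholesterol, ranged from 50.1 to 65.8 CPM in mouse 2 and from 23.8 to 44.7 CPM elsewhere (edgeR adjusted p = 1.3e-05).

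Mouse 4 lay at the other end for part of the pathway. It had the lowest mean for 9 of the 20 enzymes, more than any other mouse. It was lowest for 10 of 20 in 4n-whole, for 7 in 2n-whole (as was mouse 3) and for 7 in 4n-bottom (as was mouse 1), and for 14 in 4n-top, which had only 3 mice. Idi1, the isopentenyl diphosphate isomerase, had means of 22.8, 29.6, 15.6 and 10.2 CPM in mice 1 to 4 (edgeR adjusted p = 5.7e-06). Sqle, the squalene epoxidase and a rate-limiting step, had means of 14.0, 21.8, 19.8 and 9.30 CPM (edgeR adjusted p = 1.7e-05). Sc5d, the sterol C5-desaturase, differed in order, with 310, 283, 141 and 242 CPM. It had all libraries of mouse 3 below the others, as did 1.70% of all tested genes. The remaining enzymes that passed were Acat2, Mvk, Mvd, Fdft1, Cyp51, Msmo1, Nsdhl and Hsd17b7, with edgeR adjusted p-values between 2.3e-05 and 0.0044. Among them, Msmo1 had all libraries of mouse 4 below the others, as did 0.806% of all tested genes. Fdft1 had all libraries of mouse 1 below the others, as did 1.59% of all tested genes.

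The genes that control SREBP2 differed less among mice. Srebf2 itself ranged from 38.1 to 58.0 CPM over the 15 libraries, with overlapping mice (edgeR adjusted p = 0.199). Insig1, which encodes a sterol-sensing retention protein and is itself an SREBP target, stood at 189, 171, 175 and 169 CPM in the libraries of mouse 4. It ranged from 204 to 297 CPM in the other mice, without overlap (edgeR adjusted p = 4.5e-04). All libraries of mouse 4 lay below the others for 0.806% of all tested genes. Its paralog Insig2, which is not driven in the same way, ranged only from 141 to 188 CPM (edgeR adjusted p = 0.430). Scap, Mbtps1 and Mbtps2 did not pass, with adjusted p-values of 0.474, 0.474 and 0.0638 in edgeR.

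The sterol transfer and export genes did not share a single order of mice. Stard4, a soluble sterol transfer protein, had means of 80.3, 85.0, 67.6 and 55.9 CPM in mice 1 to 4 (edgeR adjusted p = 6.3e-05). It had all libraries of mouse 4 below the others, as did 0.806% of all tested genes. Abcg5 (chr17:84964851-84990494, minus strand) stood at 83.6, 86.7, 89.1 and 89.4 CPM in mouse 4 and at 36.0 to 51.6 CPM in the other mice (edgeR adjusted p = 1.4e-09). Abcg8 (chr17:84983730-85007765, plus strand) stood at 101, 130, 118 and 121 CPM in mouse 4 and at 31.5 to 74.4 CPM elsewhere (edgeR adjusted p = 4.2e-11). Of the 29 genes, these 2 had all libraries of mouse 4 above all others, as did 0.492% of all tested genes. Mouse 4 was thus high for both export genes while it had the lowest mean for Stard4, Insig1 and 9 enzymes. The exons of Abcg5 and Abcg8 overlap by 108 bases on opposite strands, and whether counting used the strand is not given in the sources used here.

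**Figure D3:**
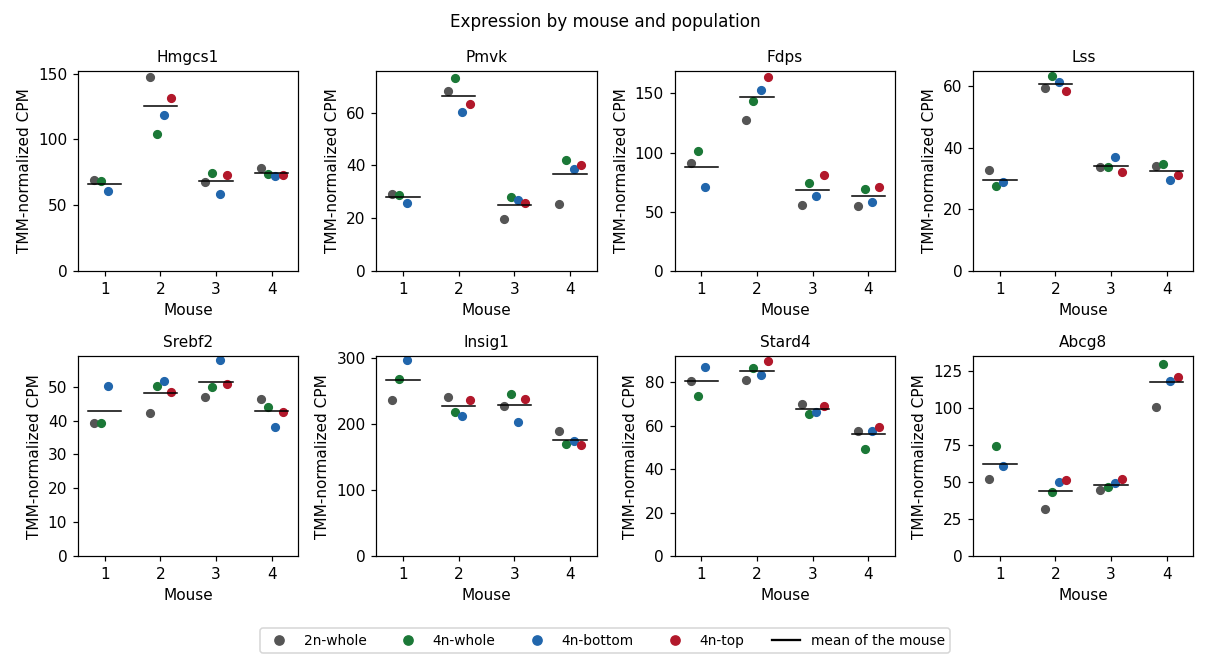
TMM-normalized CPM (y axis, from 0) of 8 genes by mouse (x axis), each point a library coloured by population and each line the mean of a mouse. Hmgcs1, Pmvk, Fdps and Lss are highest in mouse 2, Abcg8 is highest in mouse 4, Insig1 and Stard4 are lowest in mouse 4, and Srebf2 overlaps across mice.

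The difference among mice was not carried by mouse 2 alone. Without mouse 2, 13 of the 29 genes still passed (9 of 20 enzymes), against 17.0% of all tested genes, and Hmgcs1, Mvk, Lss, Dhcr7, Acat2, Fdft1 and Hsd17b7 no longer did (edgeR adjusted p from 0.0756 to 0.547). Without mouse 4, 16 passed, against 13.8% of all tested genes, and Abcg5 (edgeR adjusted p = 0.771), Insig1, Stard4, Cyp51 and Mvd were no longer among them while Mbtps2 was. Other transcripts also differed among mice. Dissociation response genes, of which 9 of 10 passed the test among mice, summed to 2272 to 3333 CPM in mouse 2, with the maximum in 4n-whole. They summed to 2057 to 2397 CPM in mouse 3, overlapping mouse 2, and to 1542 to 2214 CPM in mice 1 and 4. The 7 endothelial markers, of which 5 passed, summed to 19.0 to 30.6 CPM in mouse 2, 17.3 to 22.04 CPM in mouse 1 and 4.67 to 16.3 CPM in mice 3 and 4. Pericentral landmark genes summed to 657 CPM in 2n-whole of mouse 2 and to 610 to 962 CPM in 2n-whole of the others. In 4n-whole they summed to 1020 CPM in mouse 2 and 3025 to 3413 CPM in the others. The sums were 993 against 1135 to 2393 CPM in 4n-bottom and 1021 against 3207 to 3632 CPM in 4n-top. The part of these in the enzyme levels was not tested, and fewer cells of a kind cannot be told apart from less RNA per cell in bulk samples.

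Genes outside the 29 that are known to respond to SREBP2 were examined for the same contrast. Of 7 such genes, 5 passed among mice and 0 among populations. Aacs, the acetoacetyl-CoA synthetase that feeds ketone units into sterols, stood at 107, 126, 111 and 124 CPM in mouse 2 and at 59.6 to 75.1 CPM in mouse 1. It stood at 12.2 to 24.0 CPM in mice 3 and 4 (edgeR adjusted p = 1.0e-15), so mice 1 and 2 were both apart. Acss2, the cytosolic acetyl-CoA synthetase, was chosen after its values were seen and stood at 153 to 176 CPM in mouse 2 against 64.4 to 95.1 CPM elsewhere (edgeR adjusted p = 3.1e-11). Among mice, 2 of 8 regulators of SREBP and INSIG stability passed, 1 of 12 genes of isoprenoid branches, 3 of 4 redox partners and 7 of 20 genes of sterol uptake, trafficking, esters and efflux, beside the 19.2% of all tested genes. Among populations, 0 of 8, 0 of 12, 1 of 4 and 0 of 20 passed, and the smallest edgeR adjusted p in the lists without a call were 0.252 (Nfe2l1), 0.211 (Nus1), 0.102 (Nr1h3) and, for the SREBP2-responsive genes, 0.204 (Aacs).

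Setting 4n-whole against 2n-whole asks whether the pathway changes with ploidy. A gene was called when its adjusted p was below 0.05 and its absolute log2 fold change above 0.5. Mvk was the single called gene of 29 and was higher in 4n-whole, against 3.47% of tested genes called in all and 1.74% called higher. Mvk (chr5:114582267-114601803, plus strand), which phosphorylates mevalonate, stood at 7.94, 13.2, 7.65 and 9.02 CPM in 2n-whole of mice 1 to 4 and at 12.2, 29.1, 7.97 and 13.9 CPM in 4n-whole. The populations overlapped, but 4n-whole was higher in 4 of 4 mice, with a log2 fold change of 0.63 (SE 0.17, edgeR adjusted p = 0.0256). Without the mouse in the model it was 0.74 (edgeR adjusted p = 0.412), and the call was also lost without mouse 1, 2 or 4 (edgeR adjusted p = 0.0586, 0.300 and 0.131) and with only the compared populations in the fit. Over all alternatives its adjusted p ran from 0.00279 to 0.412.

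Cyp51, Sc5d and Abcg8 had an edgeR adjusted p below 0.05 with a change under the fold limit, so that 4 of 29 passed on p alone, against 5.47% of tested genes. Cyp51, the lanosterol demethylase, stood at 67.5, 78.6, 56.9 and 49.8 CPM in 2n-whole and 54.4, 46.0, 52.9 and 29.01 CPM in 4n-whole, lower in 4 of 4 mice (log2 fold change -0.48, SE 0.13, edgeR adjusted p = 0.0294). Sc5d stood at 334, 378, 137 and 325 CPM in 2n-whole and 304, 181, 149 and 183 CPM in 4n-whole, higher in mouse 3 only (log2 fold change -0.47, SE 0.14, edgeR adjusted p = 0.0396). These 2 enzymes thus overlapped between populations and were lower in 4n-whole in most mice. Abcg8 stood at 51.8, 31.5, 44.4 and 101 CPM in 2n-whole and 74.4, 43.5, 46.9 and 130 CPM in 4n-whole (log2 fold change 0.36, SE 0.10, edgeR adjusted p = 0.0418). Its 4n-whole value was the higher in each mouse although the groups overlapped. Without mouse 2 or without mouse 4, none of these 3 kept an adjusted p below 0.05 in edgeR (0.106 to 0.304), nor did Abcg8 without mouse 1 (0.138) or any of them without the mouse in the model (0.459 to 0.777).

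Sqle came close, at 17.9, 26.0, 20.7 and 15.7 CPM in 2n-whole and 12.5, 17.1, 18.8 and 8.25 CPM in 4n-whole. It was lower in 4 of 4 mice but did not pass (log2 fold change -0.56, SE 0.18, edgeR adjusted p = 0.0590). Ggps1, which makes geranylgeranyl diphosphate off the sterol branch, was weakly expressed, at 4.71, 5.10, 6.16 and 5.06 CPM in 2n-whole and 3.55, 3.53, 3.28 and 2.94 CPM in 4n-whole. It was the single gene of 29 whose groups did not overlap, as was the case for 5.80% of tested genes, and it did not pass (log2 fold change -0.64, SE 0.27, edgeR adjusted p = 0.168). Insig2 (-0.21, SE 0.086), Mbtps1 (0.23, SE 0.096), Pmvk (0.31, SE 0.12), Fdps (0.26, SE 0.10) and Dhcr7 (-0.27, SE 0.13) had log2 fold changes with an unadjusted edgeR p below 0.05 only. In all, 11 of 29 genes had such a p, against 20.4% of tested genes. Of the 20 enzymes, 14 had a negative log2 fold change, with a median of -0.15 against -0.0070 over all tested genes. That median was -0.07 without mouse 2 (12 negative) and -0.26 without mouse 3 (13 negative). After lanosterol 8 of 9 were negative (median -0.20), and in the mevalonate pathway 4 of 8 (median 0.12).

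Markers of lobule position, and some markers of other cell types, differed in this comparison. All 10 pericentral landmarks were called higher in 4n-whole and 4 of 10 periportal landmarks lower, and the pericentral genes summed to 610 to 962 CPM in 2n-whole and 1020 to 3413 CPM in 4n-whole. Biliary markers, with 2 of 4 called lower, summed to 34.6 to 47.4 CPM in 2n-whole and 16.404 to 31.2 CPM in 4n-whole. Sox9 was the largest part, at 24.2 to 37.0 CPM in 2n-whole and 14.3 to 30.0 CPM in 4n-whole. Krt19, Krt7 and Epcam did not exceed 1.33 CPM in any library. Of the 10 dissociation response genes, 1 was called higher and 5 had an adjusted p below 0.05 in edgeR (median log2 fold change 0.35). Of the 7 endothelial markers 1 was called lower, and 5 had negative and 2 positive log2 fold changes. The 5 tested Kupffer cell markers all had negative log2 fold changes (median -2.23) with 0 called by edgeR and 2 with an unadjusted p below 0.05. Their list had low sums, of 0.222 to 7.93 CPM in 2n-whole and 0.822 to 2.00 CPM in 4n-whole. In mouse 1 that sum was higher in 4n-whole (1.16 against 0.222 CPM). The part of these lists in the differences of Mvk, Cyp51, Sc5d and Abcg8 was not tested. Por, the reductase that passes electrons to Cyp51 and Sqle, was the 1 redox partner that passed among populations. It stood at 144, 169, 267 and 276 CPM in 2n-whole and 211, 242, 432 and 499 CPM in 4n-whole of mice 1 to 4, overlapping as groups but higher in 4 of 4 mice (log2 fold change 0.65, SE 0.097, edgeR adjusted p = 7.7e-05).

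**Figure D4:**
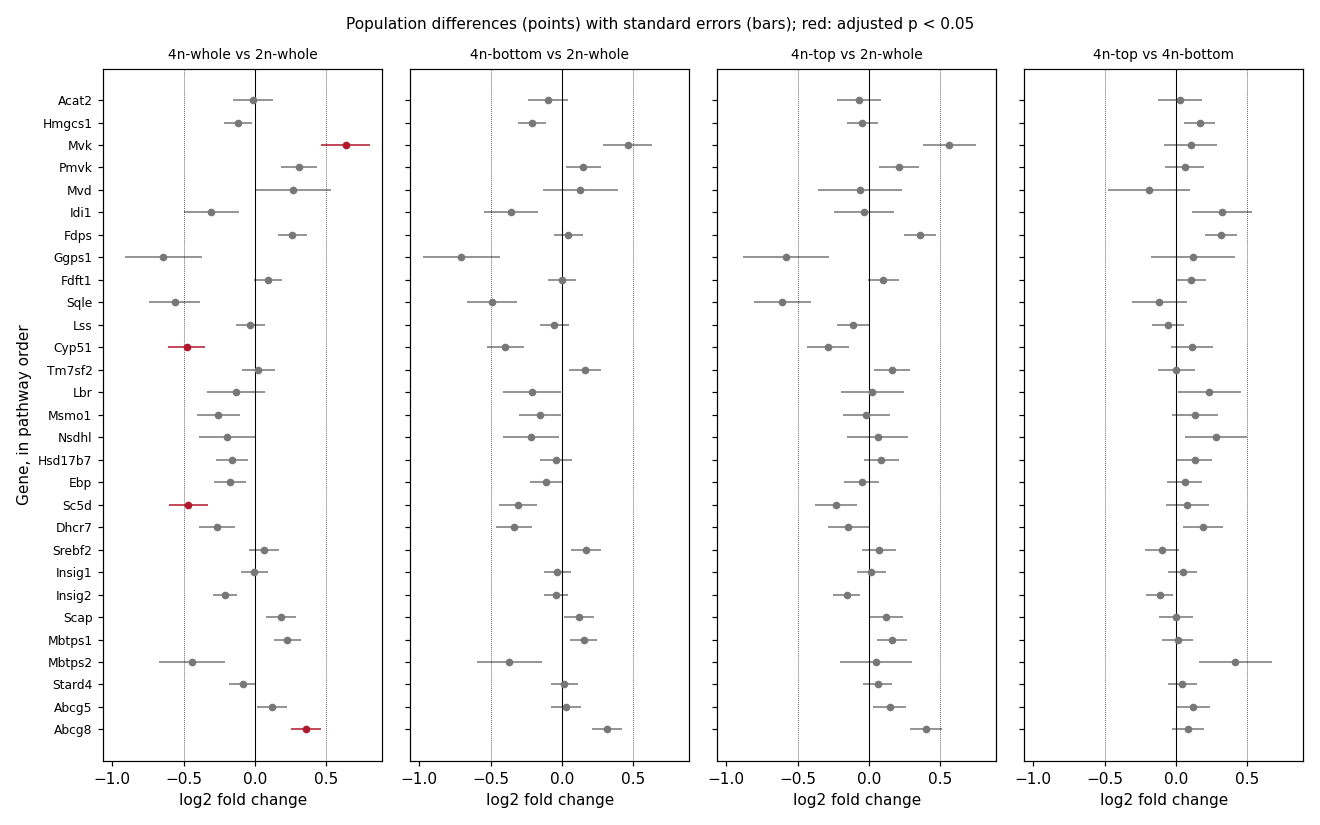
Log2 fold change (points) with its standard error (bars) for the 29 genes in pathway order in 4 comparisons, with dotted lines at the fold limit of 0.5 and red for an edgeR adjusted p below 0.05. Mvk, Cyp51, Sc5d and Abcg8 are red in 4n-whole against 2n-whole, and no gene is red in the other 3 panels.

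The other 4n populations share the 2n-whole libraries with this comparison. In 4n-bottom against 2n-whole, 0 of 29 genes were called by edgeR, against 0.463% of tested genes, and 8 had an unadjusted p below 0.05, against 10.2%. Mvk differed by 0.46 (SE 0.17), Cyp51 by -0.40 (SE 0.13), Sqle by -0.49 (SE 0.18) and Abcg8 by 0.32 (SE 0.10) on the log2 scale, with edgeR adjusted p-values from 0.249 to 0.325. Ggps1 was the single gene without overlap, against 3.52% of tested genes. In 4n-top against 2n-whole, over 3 pairs of mice, 0 of 29 were called, against 0.961%, and 4 had an unadjusted p below 0.05, against 11.3%. These were Mvk (0.56, SE 0.19), Fdps (0.36, SE 0.11), Sqle (-0.61, SE 0.20) and Abcg8 (0.40, SE 0.11) on the log2 scale, with edgeR adjusted p-values from 0.105 to 0.182. Ggps1 and Mbtps1 did not overlap there, against 9.21% of tested genes. DESeq2 with the mouse in the model also called 0 genes in both comparisons.

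Setting 4n-top against 4n-bottom bears on the arrangement of nuclei at equal DNA content. No member was called by edgeR (0 of 29, against 0.0114% of tested genes), DESeq2 with the mouse in the model called 0, and 0 of 29 had groups without overlap, against 3.15%. Fdps was the 1 gene with an unadjusted p below 0.05, against 2.79% of tested genes, at 153, 63.1 and 58.6 CPM in the 4n-bottom libraries of mice 2, 3 and 4 and at 164, 81.2 and 70.5 CPM in their 4n-top libraries. It was higher in 4n-top in 3 of 3 mice, with a log2 fold change of 0.32 (SE 0.11), but the groups overlapped and the edgeR adjusted p was 1.0. The median of the 20 enzymes was 0.11 (17 positive), against 0.0010 over all tested genes, and without mouse 3 it was 0.02 (11 positive). In the same comparison 10 of 10 periportal landmarks had negative log2 fold changes (median -0.22, 5 with an unadjusted edgeR p below 0.05 and 0 called). The pericentral landmarks were mixed, with 6 of 10 positive and 4 negative (median 0.15, range -1.08 to 0.86). Of these 10, 6 had an unadjusted edgeR p below 0.05, 0 were called higher and 1 was called lower. The part of both landmark lists in the enzyme median was not tested. The median of the enzymes in 4n-top against 2n-whole was -0.04, and 0.04 without mouse 4, so no direction holds there.

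Levels per length differed widely among the enzymes and among the SREBP2 processing genes, and less among the transfer and export genes. Length was the union of all annotated exons of a gene, which can exceed that of any single transcript, and the ranking depends on this choice. Per kilobase of annotated exon, Insig1 averaged 45.5 CPM over the 15 libraries, Sc5d 39.02, Insig2 28.4 and Ebp, the sterol isomerase, 26.9. The ranges of these neighbours overlapped (34.6 to 60.8, 18.6 to 61.6, 23.8 to 31.7 and 20.9 to 31.6 CPM per kilobase). Fdps followed at 18.8, Abcg8 at 17.7 and Hmgcs1 at 16.1 CPM per kilobase, while Lbr, Ggps1 and Mbtps2 averaged below 1. The other transfer and export genes, Abcg5 and Stard4, averaged 15.04 and 11.7 CPM per kilobase. Of the other SREBP2 processing genes, Mbtps1 averaged 6.48, Scap 5.76 and Srebf2 4.98 CPM per kilobase. Some levels may have gained or lost reads where genes overlap, since the handling of such reads is not given in the sources used here. On the opposite strand, 24.8% of the exonic length of Fdft1 overlaps Ctsb and 21.1% of that of Cyp51 overlaps Akap9. On the same strand, 23.4% of that of Mbtps2 overlaps Yy2.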

How the data were processed

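RNA-seq libraries of sorted hepatocytes were made with a stranded SMART-Seq kit. Per the labels and the study's methods, the authors aligned reads to GRCm39 with STAR (version 2.7.11a in the submitters' processing notes) and deposited raw featureCounts counts per gene. Their later steps, a batch adjustment by mouse and DESeq2, came after the deposited counts. The annotation, the strand setting and the handling of mates are not given in the sources used here. Among counts from 1 to 10, 74.2 to 81.4% per library were even, so mates of a pair may both have been counted.

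Genes passing filterByExpr (minimum count 10, minimum total 15) were tested with edgeR 4.0.16 in R 4.3.3, using TMM factors, all 15 libraries, the population and the mouse (subject number in the labels) as a replicate block. P-values were adjusted by Benjamini-Hochberg over 17488 genes. The number pairs libraries because they come from the same animal, and residuals of same-mouse pairs correlated by 0.158 on average (0.0845 to 0.227 over 21 pairs). Scripts were tested on simulated data. Shares of variance were taken from log2 CPM (prior count 2). Positions came from GENCODE M39. All 29 genes are named, up to 3 genes of each other pathway list with the smallest p among populations, and promoters of at most 5 genes with the smallest p. The genes and lists were chosen with earlier results of these data known. Alternatives were DESeq2 1.42.0, ComBat-seq in sva 3.50.0 followed by DESeq2, other size factors, no count filter, no fold limit, only the compared populations, halved counts, no block and leaving out each mouse.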

Additional observations from a re-analysis of the deposited data

Results flagged for a closer look

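Within single populations of 4 libraries, 87 gene and population groups were examined for a sample far from the other 3, and 9 stood out. The rule flags about 1 in 20 independent groups by chance. These groups share the same mice and are not independent, so the 9 cannot be set against that rate. Mouse 2 was the high sample in 5, with Acat2 at 24.6 CPM, Hmgcs1 at 148 CPM and Lss at 59.5 CPM in 2n-whole, Hmgcs1 at 104 CPM in 4n-whole and Fdps at 153 CPM in 4n-bottom. Mouse 4 was the high sample in 2, both in 4n-bottom, with Abcg5 at 89.1 CPM and Abcg8 at 118 CPM. The other two were Ebp, lowest in 2n-whole of mouse 3 at 93.1 CPM, and Mbtps2, highest in 4n-bottom of mouse 1 at 6.57 CPM.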

How the results depend on the processing

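The count of 20 genes differing among mice stayed at 20 with DESeq2 size factors, no count filter or halved counts, and ran from 13 (without mouse 2) to 20 when each mouse was left out. In 4n-whole against 2n-whole the single call depended on the setting. Without the replicate block there were 0 called genes (and 40 calls over all genes in place of 607), and 0 with only the compared populations (2.06% of all genes). There were 2 (Mvk and Sqle) with DESeq2 with the replicate block, no count filter or halved counts (4.65%, 1.80% and 4.30% of all genes), 3 (Ggps1 too) with ComBat-seq and DESeq2 (2.97%), and 4 without the fold limit (5.47%). Leaving out each mouse gave 0 (without mouse 2 or 4, where 1.98% and 1.30% of all genes were called) to 6 (without mouse 3, 5.53%), and without mouse 1 (4.68%) the 2 calls were Cyp51 and Sc5d. In 4n-top against 2n-whole, 1 gene (Sqle) was called with ComBat-seq and DESeq2 (1.38% of all genes) or with no count filter (0.664%), and 0 to 1 when each mouse was left out (Sqle without mouse 2, 1.29%). The test among populations passed 4 genes (Cyp51, Mvk, Sc5d and Sqle) with no count filter (2.00% of all genes), and 0 to 4 when each mouse was left out (4 without mouse 3, 3.16%). Counts for 4n-bottom against 2n-whole and for 4n-top against 4n-bottom were 0 under every alternative run. The replicate block changed no other count of called genes. Of 264 alternative values of 24 log2 fold changes, 246 kept their side of the threshold, 5 (all Mvk) lost it, 13 gained it and 0 changed sign. The causes were not tested. The floors of 3 counts lay at 0.0693 to 0.120 CPM, and each of the 29 genes had at least 49 counts in every library.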
